A study of Mus musculus with 2 samples.

Results

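The MHC class II presentation genes followed here are 8 of the 32285 genes counted in the files: H2-Aa, H2-Ab1, H2-Eb1, H2-DMa, H2-DMb1, H2-DMb2, Cd74 and Ciita. They were taken by name, and all 8 had UMIs (unique molecular identifiers, 1 per captured mRNA molecule) in both libraries. The cells were myeloid-derived suppressor cells (MDSC) grown from the bone marrow of 10-week-old female C57BL/6 mice for 4 days, with 50 ng/mL of both GM-CSF and IL-6 in the medium, and with either 1.5 µM dabrafenib, an inhibitor of the kinase BRAF (the DAB library), or its vehicle (the DMSO library). Each condition gave 1 single-cell RNA library, so that no difference between conditions has a replicate check, and the 95% intervals below cover counting error only. The sources used here do not say how many mice went into either library.

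MHC class II molecules carry peptides from engulfed proteins to the cell surface, where CD4+ T cells read them. The α chain H2-Aa and the β chain H2-Ab1 form I-A, and H2-Eb1 is the β chain of I-E, whose α chain gene is defective in C57BL/6 mice. Cd74, the invariant chain, guides the new molecules to the endosome and fills their groove, H2-DMa with H2-DMb1 or H2-DMb2 forms H2-M, which exchanges the Cd74 remnant for peptide, and Ciita is the coactivator that switches the whole set on in dendritic cells, B cells and activated macrophages. Granulocytes are known to carry little of it.

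On the mouse genome build GRCm38 (the annotation was GENCODE M21) 6 of the genes lie within the H2 complex on chromosome 17. These are H2-DMa (34119541 to 34139101, plus strand), H2-DMb2 (34143307 to 34151555, plus), H2-DMb1 (34153072 to 34160230, plus), H2-Ab1 (34257689 to 34269419, plus), H2-Aa (34282744 to 34287823, minus) and H2-Eb1 (34305867 to 34316674, plus). Ciita lies at 10480059 to 10528418 on the plus strand of chromosome 16 and Cd74 on another chromosome, and all 8 are annotated as protein-coding.

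Class II promoters are known for an X box followed by a Y box, the platform that CIITA joins. RefSeq promoter windows of 300 bases (250 before the start site and 50 after, GRCm38.p6) were matched for 5 of the 8 genes. They are shown for 4 of them, because H2-Aa and H2-Eb1 had like ratios between the libraries in most classes below, whereas H2-DMb1 and H2-DMb2 had not. Capitals mark AGNNACNG, the core of the X1 box, and CCAAT, the core of the Y box, each on either strand, and the windows read 5′ to 3′ on the gene's own strand. The windows span chr17:34287774-34288073 on the minus strand for H2-Aa and, on the plus strand, chr17:34305617-34305916 for H2-Eb1, chr17:34152941-34153240 for H2-DMb1 and chr17:34144999-34145298 for H2-DMb2.
H2-Aa: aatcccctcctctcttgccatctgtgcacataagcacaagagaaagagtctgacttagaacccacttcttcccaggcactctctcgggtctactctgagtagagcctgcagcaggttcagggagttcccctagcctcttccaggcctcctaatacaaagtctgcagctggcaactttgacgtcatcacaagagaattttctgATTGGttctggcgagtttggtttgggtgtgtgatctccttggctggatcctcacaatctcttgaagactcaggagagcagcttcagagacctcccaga
H2-Eb1: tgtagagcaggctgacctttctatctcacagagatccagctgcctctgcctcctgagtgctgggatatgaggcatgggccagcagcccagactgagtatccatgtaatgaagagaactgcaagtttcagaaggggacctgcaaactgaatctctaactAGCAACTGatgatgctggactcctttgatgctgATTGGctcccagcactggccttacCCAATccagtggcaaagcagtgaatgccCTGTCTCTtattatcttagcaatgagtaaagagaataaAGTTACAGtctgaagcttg
H2-DMb1: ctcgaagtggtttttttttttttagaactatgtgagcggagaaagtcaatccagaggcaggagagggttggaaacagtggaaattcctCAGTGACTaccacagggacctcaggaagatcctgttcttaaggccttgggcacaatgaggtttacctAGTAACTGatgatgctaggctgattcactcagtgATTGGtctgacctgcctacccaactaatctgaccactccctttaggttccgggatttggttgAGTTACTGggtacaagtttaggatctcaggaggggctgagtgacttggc
H2-DMb2: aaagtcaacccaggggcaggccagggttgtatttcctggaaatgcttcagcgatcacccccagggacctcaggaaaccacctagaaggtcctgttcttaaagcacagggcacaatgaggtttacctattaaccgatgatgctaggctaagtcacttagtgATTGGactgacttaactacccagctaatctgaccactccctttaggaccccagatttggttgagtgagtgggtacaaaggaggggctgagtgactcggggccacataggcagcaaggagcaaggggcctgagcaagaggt

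A CCAAT core lay in these 4 windows, in 1 of the 2 windows of H2-DMa, which are not shown, and in 37.4% of the 32851 promoters in the table. AGNNACNG, which 50.9% of all promoters held, occurred in those of H2-Eb1 and H2-DMb1 and in the H2-DMa window without CCAAT, and not in those of H2-Aa and H2-DMb2. An AGNNACNG with a CCAAT 10 to 40 bases after it was found in H2-Eb1 (25 bases between them) and in H2-DMb1 (26 bases), and in 2.98% of all promoters. These matches describe letters in a window and say nothing of which factors bind there.

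The cells were first sorted into classes by genes other than those of class II. After filtering, 9032 DMSO cells (92962215 UMIs, median 7604.5 per cell) and 10476 DAB cells (141151028 UMIs, median 9508) fell into 26 clusters. The class II genes took no part in the clustering, and 13 clusters could be named from 9 of 18 marker lists, the other clusters being called by their leading genes. Markers of mature PMN cells, secondary granule granulocytes, immature monocytes and macrophages were all found, as the label MDSC would have it, together with activated dendritic-like cells (Ccr7, Fscn1, Ccl22) and B cell-like cells (Cd79a, Cd79b, Ms4a1). No cluster could be named Cd209a dendritic: the cluster nearest to that list, led by Ccl24 and Dscam, had 4 of its 8 markers raised (Clec10a, Klrd1, Napsa and Dpp4) and none among its 10 leading genes, and stands in for it below as the Ccl24/Dscam cluster. T or NK cells formed no named cluster, so free RNA was judged from the secondary granule granulocyte-like cells. Any expression of their own was not told apart from it. The libraries shared 152 cell barcodes.

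The UMIs of the class II chains came mostly from a small part of the cells. The Ccl24/Dscam cluster (637 DMSO and 817 DAB cells) held 47.5% of the H2-Aa UMIs of the DMSO library and 69.9% of those of the DAB library, although it held 14.1% and 17.4% of all UMIs. Activated dendritic-like cells (233 and 79 cells, 2.58% and 0.754% of each library) held 30.8% of H2-Aa UMIs in DMSO and 11.2% in DAB. B cell-like cells (139 and 189) held 1.56% and 5.49%. In single cells, the 10% of cells with the most H2-Aa carried 96.9% of its UMIs in DMSO and 99.2% in DAB. Cd74 was spread more widely, with 75.1% and 68.5% in its top 10% of cells, and the Ccl24/Dscam cluster held 41.1% and 48.3% of it. H2-DMa was more widely spread still by class, with 32.1% and 38.8% of its UMIs in that cluster.

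**Figure D1:**
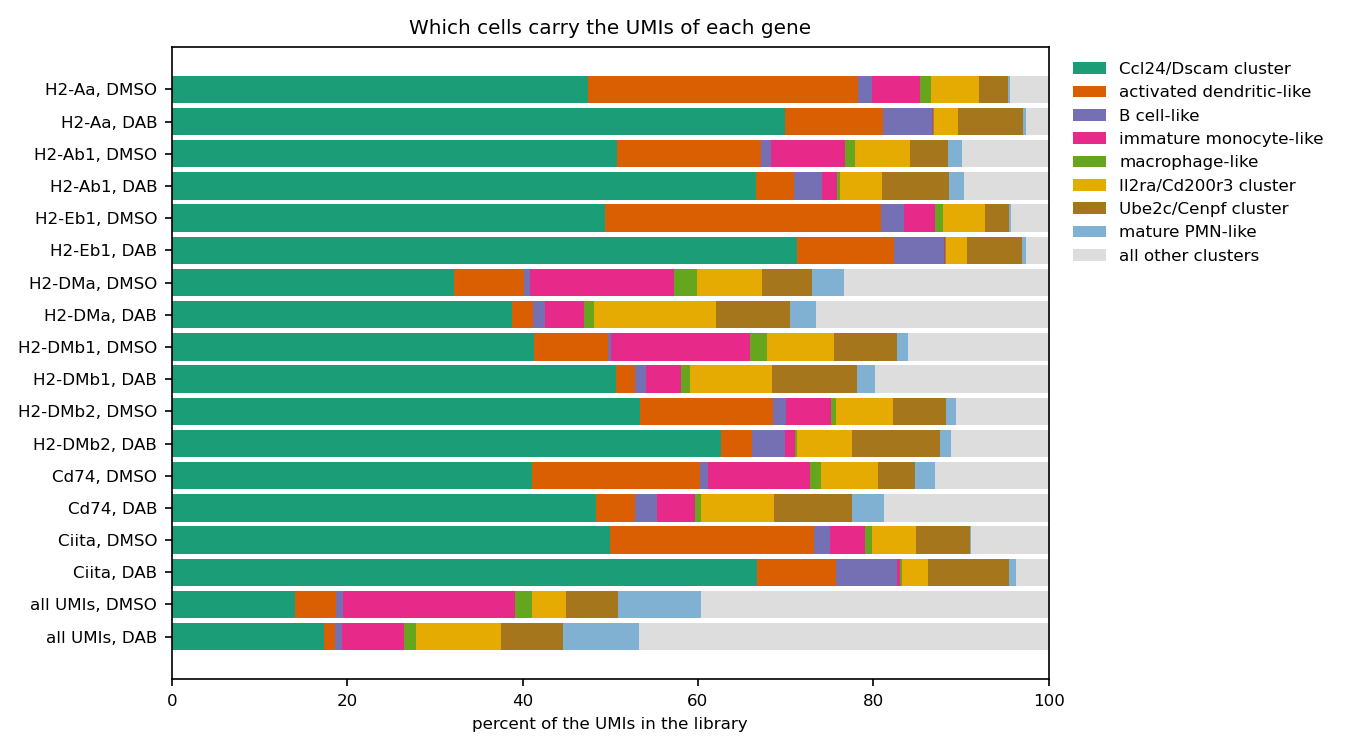
Percent of the UMIs of each gene (horizontal axis) that came from each cell class or cluster, with 1 bar per gene and library and the split of all UMIs at the bottom. The Ccl24/Dscam cluster gave 47.5% of H2-Aa UMIs in DMSO and 69.9% in DAB, while the activated dendritic-like part went from 30.8% to 11.2%.

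Over all cells the set as a whole stood at nearly the same level in both libraries. Levels are given in CPM, the UMIs of a gene per 1000000 UMIs of the same cells. H2-Aa gave 575 CPM in DMSO (95% interval 570.1 to 579.9) and 479 in DAB (475 to 482), a log2 ratio of DAB over DMSO of -0.26. H2-Ab1 gave 544 and 513 CPM (-0.08), H2-Eb1 358 and 319 (-0.17), and Cd74 2928 and 3203 (0.13). H2-DMa gave 231 and 249 CPM (0.11), and Ciita 12.95 and 13.6 (0.07). The 2 H2-M β chain genes parted: H2-DMb1 was lower in DAB, 75.3 against 52.0 CPM (-0.53, interval -0.58 to -0.49), and H2-DMb2 higher, 67.3 against 101 CPM (0.58, interval 0.54 to 0.63).

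A gene was called where its log2 ratio was at least 0.5 in size and its interval left out 0, among genes with at least 20 UMIs in all. By that rule 1 of the 8 genes was called higher in DAB and 1 lower, while of all 16342 genes tested 13.6% were called higher and 16.9% lower, so the genes were called about as often as any. Their median log2 ratio was -0.00 and that of all genes -0.02. Giving each cluster the weight it had in the DMSO library moved H2-Aa to -0.05, H2-Eb1 to 0.04 and H2-Ab1 to -0.13, and left H2-DMb1 at -0.64, H2-DMb2 at 0.47 and Cd74 at 0.14. The ratios by class went different ways, but the classes did not weigh alike in these sums. Most H2-Aa UMIs of each library came from the Ccl24/Dscam cluster and the activated dendritic-like cells. Its log2 ratios there were -0.01 and 0.24. Classes with larger H2-Aa ratios, such as immature monocyte-like (-4.11) and B cell-like cells (1.57), each held a smaller part of its UMIs. Within bulk sums, fewer cells of a type and less RNA per cell cannot be told apart, which is why the classes are taken 1 by 1 below.

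**Figure D2:**
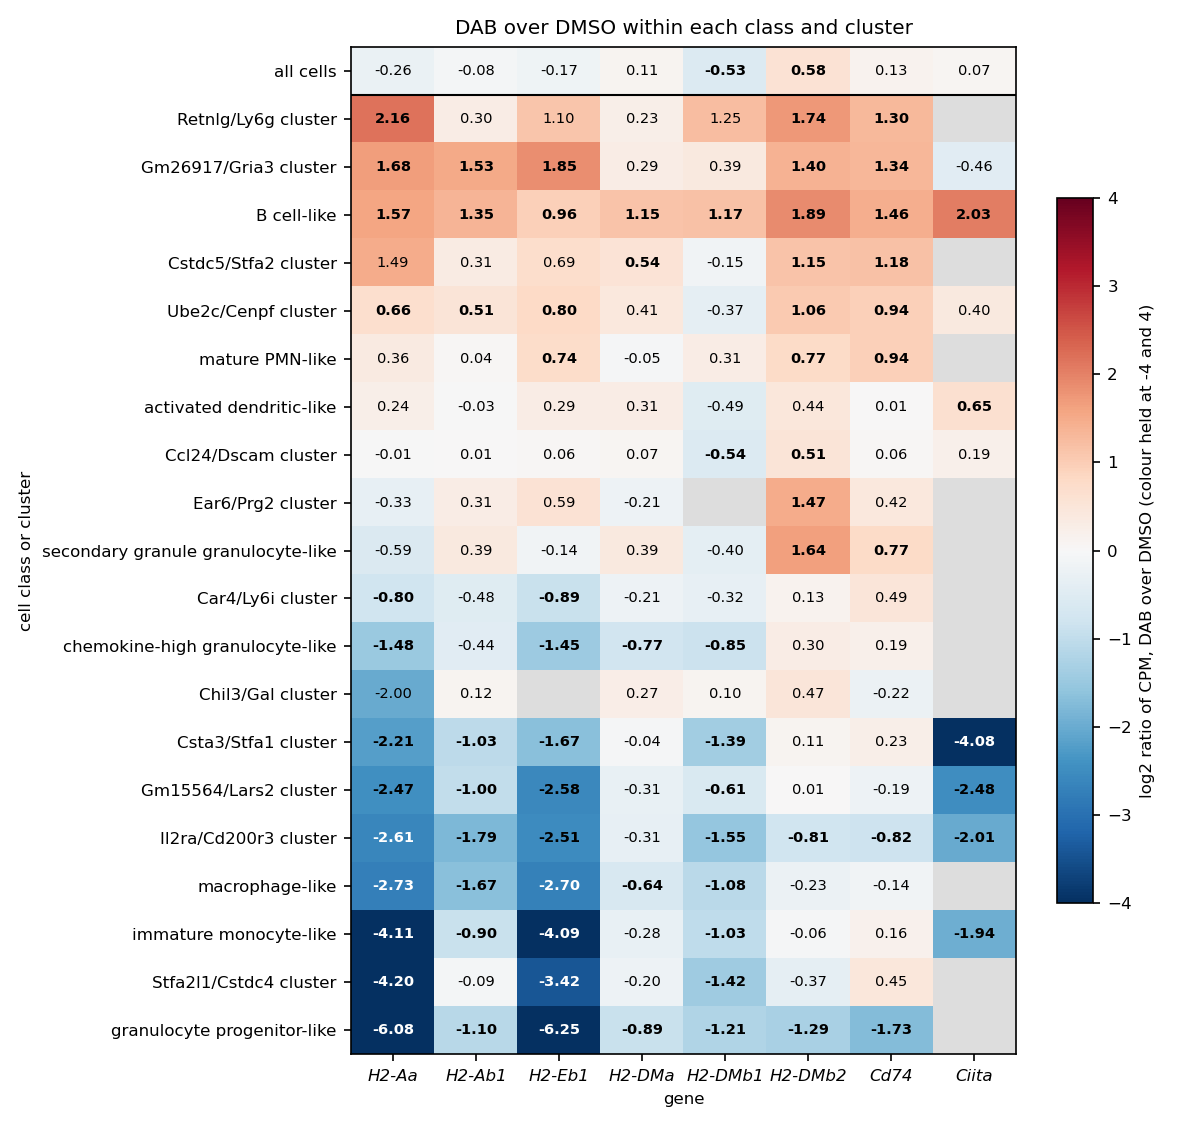
Log2 ratio of CPM, DAB over DMSO (colour and number), of each gene (columns) over all cells and in the 20 classes and clusters in which both libraries had 50 cells or more (rows, ordered by H2-Aa). Bold numbers were called and grey cells had under 20 UMIs. H2-Aa ran from 2.16 (on 2 DMSO and 49 DAB UMIs) down to -6.08 (on 199 and 4 UMIs) over the rows. Its value over all cells was -0.26.

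In the Ccl24/Dscam cluster, which held more of the set's UMIs than any other class, the chains stood at nearly the same level in both aligned libraries. H2-Aa was at 1935 CPM in DMSO (interval 1912 to 1959) and 1925 in DAB (1908 to 1943), and the intervals overlapped. H2-Ab1 was at 1959 and 1966 CPM, with overlapping intervals, and H2-Eb1 at 1254 and 1306, log2 ratio 0.06 with an interval of 0.03 to 0.09. Cd74 was at 8527 and 8899 CPM (0.06), H2-DMa at 527 and 555 (0.07) and Ciita at 45.9 and 52.4 (0.19, interval 0.05 to 0.33). H2-DMb1 was called lower (221 and 151 CPM, -0.54) and H2-DMb2 higher (255 and 363 CPM, 0.51). Of the 12627 genes tested in this cluster, 15.6% were called higher and 19.7% lower, and 1 of 8 in each direction is near that. Both ratios lay close to the threshold. H2-DMb2 lost its call with free RNA subtracted, without doublet removal and at a finer clustering, and H2-DMb1 with scaling by the median of ratios. Without alignment of the libraries the cluster held 29 DMSO and 729 DAB cells, too few from DMSO to compare. The near level of the chains is therefore known only with alignment.

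This cluster was itself mixed. At least 25% of its cells had no H2-Aa UMI in either library, while the 75th percentile was 3067 CPM for DMSO and 3104 for DAB and the medians at 1115 and 1276. Each cell was thinned to 1500 UMIs, which makes shares comparable between depths. This leaves out 430 DMSO and 284 DAB cells of the whole libraries, none of them from this cluster. In the cluster 56.0% of the 637 DMSO cells (interval 52.1 to 59.9) and 59.6% of the 817 DAB cells (56.2 to 63.0) then had at least 3 UMIs of the 3 chains together. The cells of this cluster were deeper in DAB, at a median of 29141 UMIs against 19840. Summed levels of the immature monocyte markers in it were 3876 CPM in DMSO and 2193 in DAB, and those of the macrophage markers 315 and 176. Those of the activated dendritic markers were 376 and 187, and no marker of the 3 lists was at 0. Their part in the ratios was not tested.

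Activated dendritic-like cells had the highest H2-Aa level of the classes in each library. H2-Aa was at 3846 CPM in DMSO and 4532 in DAB (0.24, interval 0.20 to 0.28), and H2-Eb1 at 2449 and 2986 (0.29). H2-Ab1 was at 1938 and 1898 CPM, with overlapping intervals, and Cd74 at 12154 and 12226, likewise overlapping. Ciita was the 1 gene called, higher in DAB at 65.4 against 103 CPM (0.65, interval 0.37 to 0.93), where 8.34% of 9844 genes were called higher and 16.6% lower. H2-DMb1 (137 and 97.5 CPM, -0.49) and H2-DMb2 (220.5 and 299 CPM, 0.44) again leaned apart without reaching the threshold. Without alignment of the libraries, and without doublet removal, 1 gene was called in each direction in this class. The immature monocyte markers summed to 3803 CPM in DMSO and 1849 in DAB in it, and their part was not tested.

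**Figure D3:**
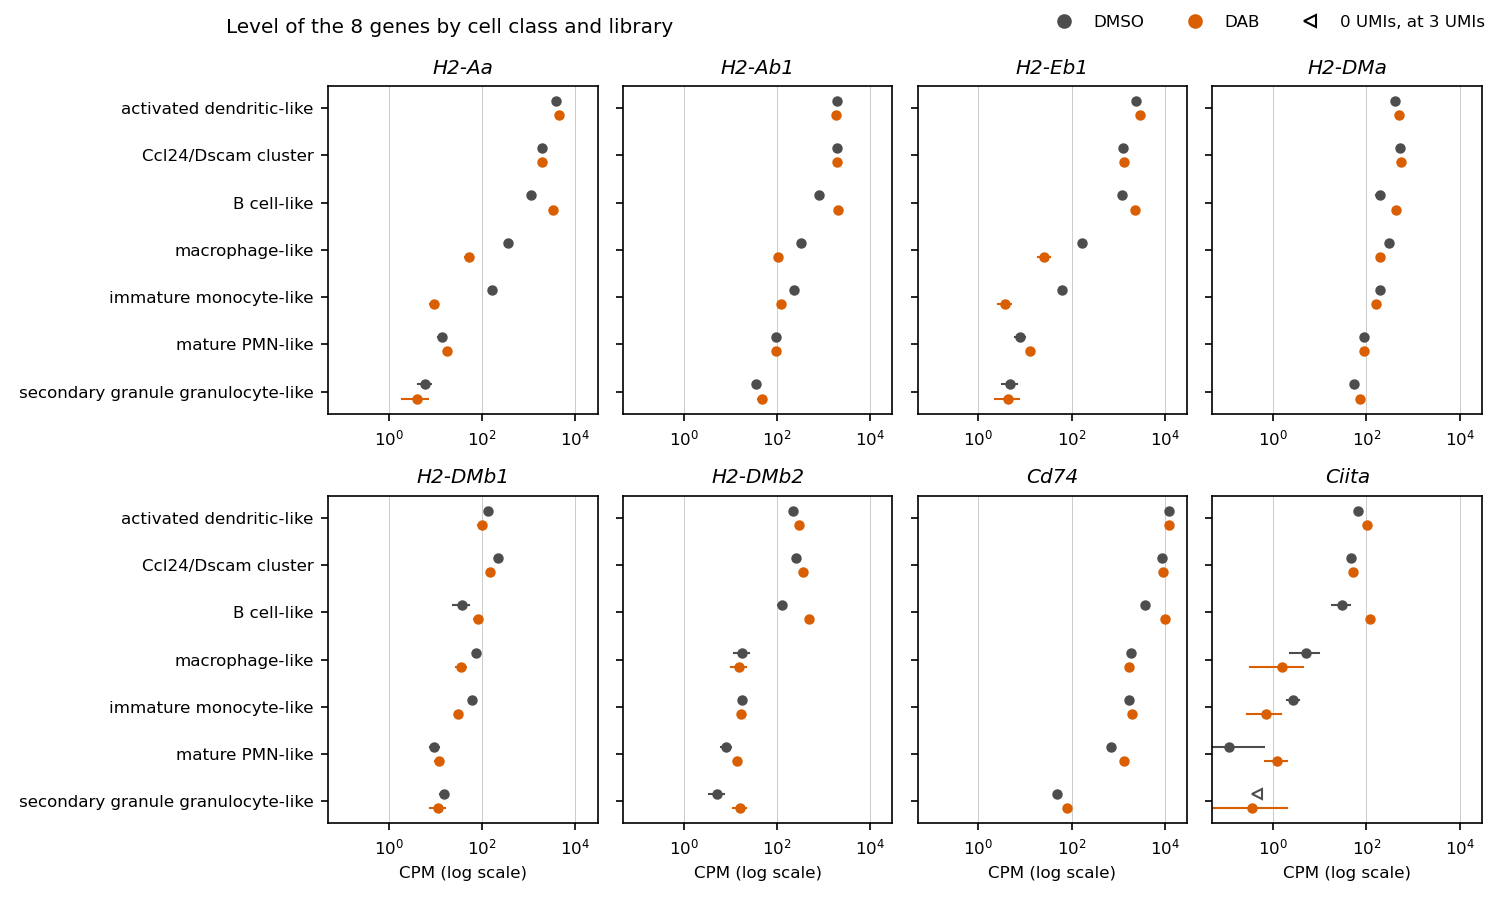
CPM (horizontal, log scale) of each of the 8 genes in 7 cell classes, with grey points for DMSO, orange points for DAB and lines for the 95% counting interval; an open triangle stands at 3 UMIs where none was counted. H2-Aa falls from 3846 CPM in activated dendritic-like cells to 5.93 in secondary granule granulocyte-like cells in DMSO, and the B cell-like points for DAB lie to the right of those for DMSO in all 8 panels.

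In B cell-like cells the whole set was higher in DAB. All 8 genes were called higher there, where 13.1% of the 7403 genes tested in these cells were called higher and 9.06% lower, and the median log2 ratio was 1.40 for the 8 genes and 0.11 for all genes. H2-Aa was at 1127 CPM in DMSO (interval 1052 to 1206) and 3346 in DAB (3239 to 3455), a ratio of 2.97. H2-Ab1 was at 817 and 2084 CPM (2.55-fold), and H2-Eb1 at 1186 and 2311 (1.95-fold). Cd74 was at 3702 and 10154 CPM (2.74-fold), and no gene's interval in DMSO met its interval in DAB. H2-DMa was at 191 and 423 CPM (2.22-fold), H2-DMb1 at 36.5 and 82.0 (2.25-fold), and H2-DMb2 at 128 and 477 (3.72-fold). Ciita, on 22 and 135 UMIs, was at 29.7 CPM (18.6 to 45.0) and 122 (102 to 144), which made 4.09-fold. B cells were thus the single class in which H2-DMb1 and H2-DMb2 were both called higher.

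The difference lay in the bulk of the B cell-like cells. The 3 chains together had a median of 2661 CPM per cell in DMSO, with quartiles at 1057 and 4428, and a median of 8774 in DAB, with quartiles at 4026 and 13837. Thinned to 1500 UMIs, 69.8% of the DMSO cells (interval 61.1 to 77.5) and 90.4% of the DAB cells (85.1 to 94.3) had an H2-Aa UMI, and unthinned 79.9% and 94.7% did. For Ciita the thinned shares were 3.88% (1.27 to 8.81) and 18.6% (13.2 to 25.2). In secondary granule granulocyte-like cells, which should lack the genes, the thinned H2-Aa shares were 0.618% and 1.82% at median depths of 7126 and 11119.5 UMIs, and the B cell-like cells had medians of 4064 and 4983.

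**Figure D4:**
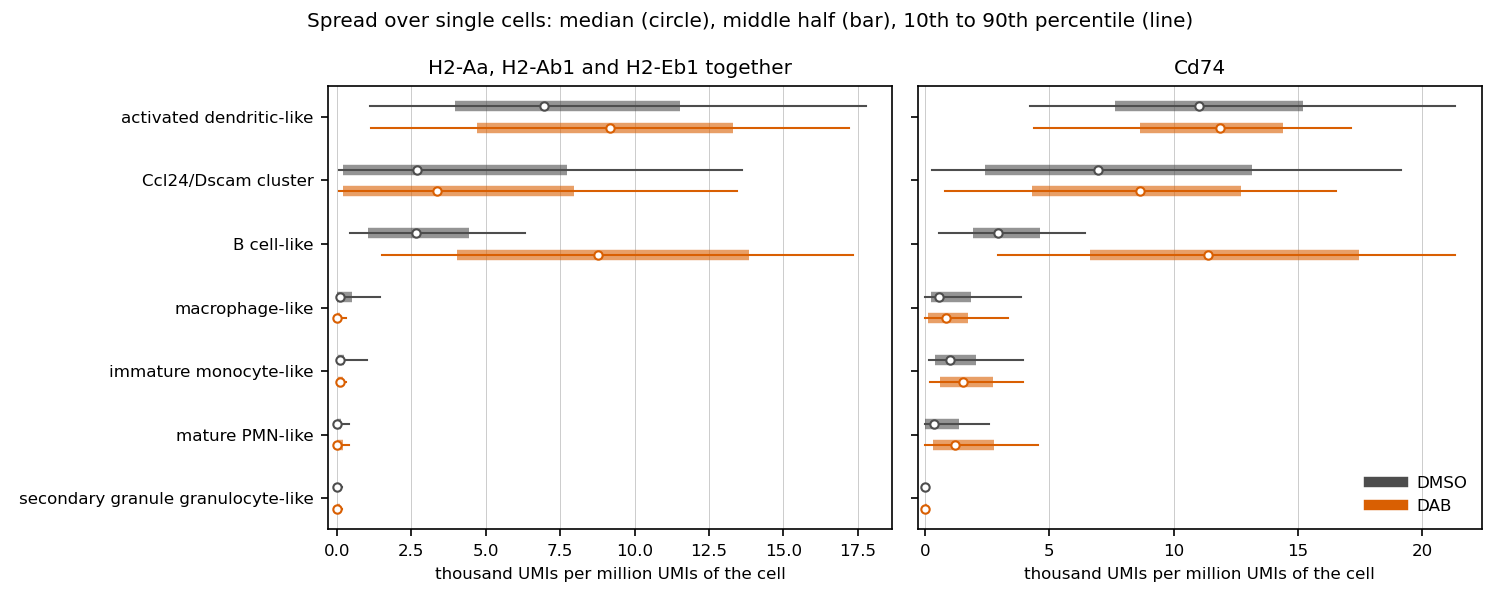
Level per single cell of the 3 chains together (left) and of Cd74 (right) by class and library, in units of 1000 CPM of the cell; circles are medians, bars span the quartiles and lines the 10th to 90th percentile. In B cell-like cells the chain median was 2661 CPM in DMSO and 8774 in DAB, whereas in the Ccl24/Dscam cluster the bars of both libraries start near 0 and overlap.

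Other genes of the B cell-like cells moved too, and these were chosen after their values were seen. Ighd, the heavy chain of IgD on naive B cells, was at 81.1 CPM in DMSO and 239.8 in DAB, and 30.9% and 67.2% of cells had a UMI of it. Bank1, an adaptor of B cell receptor signalling, went from 108 to 310 CPM and Cd22, an inhibitory coreceptor, from 54.0 to 147. Ighm was lower, at 5910 and 3370 CPM, and the proliferation gene Mki67 was at 111 and 26.1 CPM. Jchain, a plasma cell gene, came from 4.32% and 1.59% of cells, and Vpreb1, Igll1 and Rag1, genes of B cell precursors, had no UMI. Among cells with no Ighd UMI (96 DMSO and 62 DAB) all 8 genes were called higher, H2-Aa at 1060 and 2454 CPM and Ciita at 25.4 and 87.2. Among cells with an Ighd UMI (43 and 127, the first being under the 50 cells set for a comparison) H2-Aa was at 1246 and 3747 CPM. At these Ighd levels and at median depths of 4064 and 4983 UMIs, a cell that expresses Ighd can show no UMI of it. The split therefore cannot tell whether the ratios go with Ighd. Leaving out cells with 10 or more Jchain UMIs left H2-Aa at a log2 ratio of 1.53.

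UMIs of genes on the myeloid marker lists were seen in these cells as well. Of the 8 macrophage markers, C1qa and C1qc were at 0 and the list summed to 131 CPM in DMSO and 539 in DAB, of which Apoe made 74.3 and 462. The immature monocyte list summed to 185 and 453 CPM, with Spp1 at 74.3 and 325 and Mmp12 at 23.0 and 105. Its other genes, Lpl, Mgl2, Ccr2, Fn1 and F13a1, were lower in DAB. S100a8 was at 2223 and 640.1 CPM, while 43.9% of the DMSO cells and 68.8% of the DAB cells had a UMI of it. Both dendritic lists summed higher in DAB, the activated dendritic list mostly through Il4i1. That list summed to 407 and 796 CPM, with Il4i1 at 75.7 and 532 and Cacnb3 at 0. Socs2 (4.05 and 15.3) was higher as well and Ccl22 (35.1 and 37.9) nearly level, while Ccr7 (281 and 208) and Ccl17 (9.46 and 0.902) were lower. The Cd209a dendritic list summed to 265 and 435, with Napsa at 208 and 347 and Cd209a at 0. The part of these lists in the ratios was not tested. With the level in granulocytes subtracted from each gene, all 8 had a log2 ratio of at least 0.5, for which no interval was computed. In each of the other clusterings tried all 8 were called higher.

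Immature monocyte-like cells (1019 DMSO and 533 DAB) showed the reverse. H2-Aa was at 161 CPM in DMSO (155 to 167) and 9.30 in DAB (7.502 to 11.4), a log2 ratio of -4.11. H2-Eb1 was at 62.9 and 3.70 CPM (-4.09), H2-Ab1 at 231 and 124 (-0.90), H2-DMb1 at 60.7 and 29.8 (-1.03) and Ciita, on 49 and 7 UMIs, at 2.68 and 0.700 (-1.94). These 5 were called lower and none higher, against 18.8% and 11.4% of 12084 genes. Cd74 did not go with them, at 1733 and 1941 CPM (0.16). H2-DMb2 was not called, at 17.7 and 16.99 CPM, with an interval that held 0. In the secondary granule granulocyte-like cells, used for free RNA, H2-DMb2 was at 5.17 CPM in DMSO and 16.1 in DAB. Its DAB level in the immature monocyte-like cells thus lay near the level in the granulocyte-like cells, and its DMSO level above it. Those granulocyte-like cells had H2-Aa at 3.94 CPM in DAB, where all cells had 479. Their 16.1 CPM of H2-DMb2 stood against 101 in all cells. How much of the H2-DMb2 was free RNA was not tested.

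The difference in these monocytic cells was one of a few cells with much H2-Aa. The 90th percentile was 407 CPM in DMSO and 0 in DAB, the median was 0 in both, and the top 10% of the DMSO cells carried 91.7% of the class's H2-Aa. Thinned, 9.83% of the DMSO cells (8.07 to 11.8) and 0.753% of the DAB cells (0.205 to 1.92) had an H2-Aa UMI, against 0.618% and 1.82% in secondary granule granulocyte-like cells, so the DAB share lay at the level of free RNA. Unthinned the shares were 19.4% and 6.19%. Markers of activated dendritic cells summed to 146 and 66.1 CPM in the class and those of the cDC1 subset to 277 and 103. The Cd209a dendritic list was near level at 627 and 602, with Cd209a at 0. The part of these lists was not tested. The direction depended on how the libraries were aligned. Without alignment the class held 1787 DMSO and 57 DAB cells, H2-Aa was at 759 and 1116 CPM (0.56), and 4 genes were called higher and none lower.

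Macrophage-like cells (175 and 140) followed the same order. H2-Aa was at 357 and 53.7 CPM (-2.73, interval -3.04 to -2.43), H2-Eb1 at 168 and 25.8 (-2.70) and H2-Ab1 at 333 and 105 (-1.67). H2-DMa (308 and 198 CPM, -0.64) and H2-DMb1 (74.7 and 35.5, -1.08) were called lower as well, and Cd74 had 1889 and 1718 CPM (-0.14). That made 5 genes lower and none higher, against 11.8% and 9.93% of 9016 genes. Without alignment the H2-Aa log2 ratio was -3.31 and 4 genes were called lower, H2-DMa at -0.48 no longer among them. In this class the macrophage markers themselves summed to 5257 CPM for DMSO and 3315 for DAB. Few cells carried H2-Aa here as well, with a median of 0 in both libraries, 85.2% of the DMSO UMIs in the top 10% of cells, and thinned shares of cells with a UMI of 16.9% (11.6 to 23.3) and 3.73% (1.22 to 8.49), or 32.0% and 11.4% unthinned. Markers of activated dendritic cells summed to 168 and 69.9, with Ccr7 and Fscn1 at 0, and the part of either list was not tested.

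The other classes and clusters went both ways. In the Il2ra/Cd200r3 cluster (282 and 717 cells) 7 genes were called lower, H2-Aa at 818 and 134 CPM and Cd74 at 4854 and 2757, and none higher, against 14.7% and 10.3% of 11172 genes. In granulocyte progenitor-like cells (131 and 84) 7 were called lower too, H2-Aa on 199 and 4 UMIs and Cd74 at 902 and 272 CPM, and none higher, against 14.4% and 21.6% of 8778 genes. For H2-Aa and Cd74 a few DMSO cells carried this. The top 10% of the DMSO cells held 100% of the H2-Aa and 86.8% of the Cd74 UMIs, with medians of 0. Thinned, 25.8% of the DMSO cells (18.4 to 34.4) and 25.3% of the DAB cells (16.4 to 36.0) had a Cd74 UMI, and 4.84% and 2.41% an H2-Aa UMI, with overlapping intervals. Unthinned the shares were 42.0% and 50.0% for Cd74 and 7.63% and 4.76% for H2-Aa. In the dividing Ube2c/Cenpf cluster (227 and 277) 5 were called higher, H2-Aa at 319 and 503 CPM and Cd74 at 2089 and 4017, and none lower, against 14.8% and 18.8% of 11225 genes. Over the 20 classes and clusters (19 for H2-Eb1 and H2-DMb1), H2-Aa was called higher in 4 and lower in 9. H2-Eb1 was called higher in 4 and lower in 9, and H2-Ab1 higher in 3 and lower in 6. Cd74 was called higher in 7 and lower in 2, H2-DMb2 higher in 9 and lower in 2, and H2-DMb1 higher in 1 and lower in 9. These counts include the secondary granule granulocyte-like cells, used for free RNA. There Cd74 (47.8 and 81.2 CPM) and H2-DMb2 (5.17 and 16.1 CPM) were called higher. Other H2-DMb2 calls rested on few DMSO UMIs: 4 against 73 in the Retnlg/Ly6g cluster, 9 against 303 in Cstdc5/Stfa2 and 8 against 21 in Ear6/Prg2. In the classes and clusters described in this report, 8.34% to 21.6% of all genes were called higher and 8.91% to 19.7% lower. Shares for the rest, the secondary granule granulocyte-like cells among them, are not given.

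Mature PMN-like cells carried Cd74 with few chains, whereas secondary granule granulocyte-like cells had little Cd74 either (47.8 and 81.2 CPM). In mature PMN-like cells (1904 and 2065) Cd74 was at 708 CPM in DMSO (691 to 726) and 1356 in DAB (1336 to 1377), while H2-Aa was at 13.5 and 17.4. Thinned, 46.7% of the DMSO cells (44.3 to 49.1) and 69.6% of the DAB cells (67.5 to 71.6) had a Cd74 UMI, against 4.82% and 10.0% in secondary granule granulocyte-like cells, and unthinned 63.9% and 86.1% did. Cd74, H2-Eb1 (7.72 and 12.9 CPM) and H2-DMb2 (8.29 and 14.1 CPM) were called higher and none lower, against 18.7% and 8.91% of 11534 genes. In secondary granule granulocyte-like cells H2-Eb1 was at 4.72 and 4.29 CPM and H2-DMb2 at 5.17 and 16.1. The DAB level of H2-DMb2 in mature PMN-like cells thus lay below that of the secondary granule granulocyte-like cells. The H2-DMb2 value, on 73 and 174 UMIs, turned sign under 3 other clusterings, and the immature monocyte markers summed to 769 and 2255 CPM in these cells. For H2-Ab1, at 93.8 and 96.6 CPM, no difference was detectable at this depth.

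The genes did not keep to 1 ratio across the cells. Cd74 gave 3.16 UMIs per H2-Aa UMI in activated dendritic-like cells of the DMSO library, 3.29 in B cell-like cells and 4.41 in the Ccl24/Dscam cluster, but 10.8 in immature monocyte-like and 52.4 in mature PMN-like cells. In DAB the same ratios were 2.70, 3.03, 4.62, 209 and 78.0. The 209 rests on 93 H2-Aa UMIs. The thinned DAB share of cells with H2-Aa in that class was no higher than in secondary granule granulocyte-like cells. Its DAB level, 9.30 CPM, was above theirs. H2-Aa in mature PMN-like cells was at 13.5 and 17.4 CPM, against 5.93 and 3.94 in secondary granule granulocyte-like cells. Free RNA was not subtracted, so these ratios and the spans below rest partly on low H2-Aa levels. Over the 16 classes and clusters of the DMSO library with at least 50 UMIs of both genes, the ratio spanned 16.6-fold. H2-Ab1 per H2-Aa spanned 13.8-fold, from 0.504 in activated dendritic-like to 6.94 in mature PMN-like cells. Secondary granule granulocyte-like cells, under that limit with 39 H2-Aa UMIs, were near the top at 6.08 (4.32 to 8.76). H2-Ab1 was at 36.1 CPM in them in DMSO.

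H2-Eb1 held closest to H2-Aa. It gave 0.637 UMIs per H2-Aa UMI in activated dendritic-like cells of the DMSO library, 0.648 in the Ccl24/Dscam cluster, 0.472 in macrophage-like and 0.571 in mature PMN-like cells, and in DAB 0.659, 0.678, 0.481 and 0.743. Over 12 classes and clusters of the DAB library it spanned 1.55-fold, and over 13 of the DMSO library 2.70-fold. In DMSO the B cell-like class was highest, at 1.05 (0.956 to 1.16), and in DAB it was at 0.691 (0.656 to 0.727), the intervals lying apart, where the chemokine-high granulocyte-like class was highest at 0.746. UMIs of H2-DMb2 per UMI of H2-DMb1 were 0.894 in all DMSO cells (0.864 to 0.925) and 1.94 in all DAB cells (1.88 to 1.99). The ratio was higher in DAB in all 9 classes and clusters with at least 50 UMIs of each, with intervals lying apart in 6 of them. In secondary granule granulocyte-like cells, used for free RNA and under that limit, it was 0.343 in DMSO and 1.41 in DAB. Free RNA was not subtracted here either, and its part in the ratio was not tested. H2-DMb1 and H2-DMb2 are close copies of each other, and the sources used here do not say how reads that fit both were assigned, so the split between them is uncertain.

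**Figure D5:**
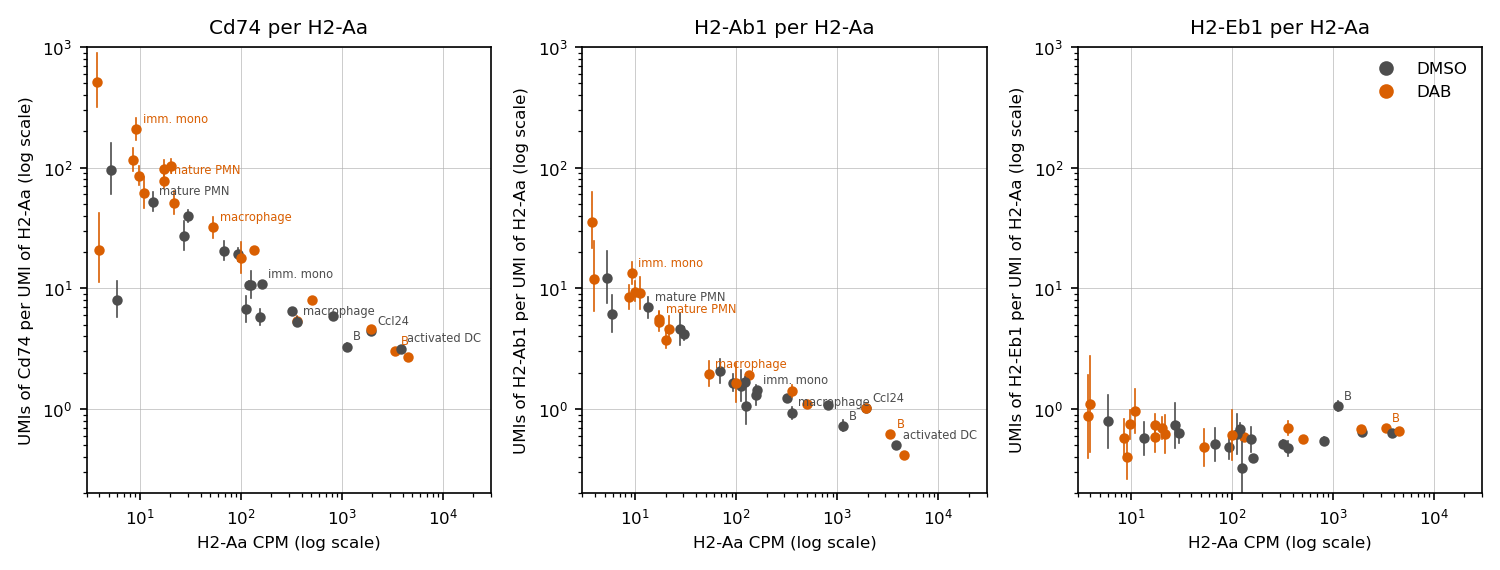
UMIs of Cd74, H2-Ab1 and H2-Eb1 per UMI of H2-Aa (vertical, log scale) against the H2-Aa level (horizontal, log scale) in each class and cluster with at least 10 UMIs of both genes, with 95% counting intervals (grey DMSO, orange DAB). H2-Aa enters both axes, so no slope is read from the panels. H2-Eb1 stays between 0.323 and 1.09 per H2-Aa UMI while Cd74 runs from 2.70 to 514, the last on 16 H2-Aa UMIs.

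Of a list of 5 other class II genes of the H2 complex, 3 were matched by symbol in the files. H2-Oa and H2-Ob encode H2-O, an inhibitor of H2-M, and H2-Oa was lower over all cells (39.5 and 25.04 CPM, -0.66) while H2-Ob was not called (-0.26). Both were called lower in the Ccl24/Dscam cluster (H2-Oa 81.6 and 51.5 CPM, H2-Ob 32.7 and 22.3) and higher in the B cell-like cells (94.6 and 235 CPM, 174 and 326 CPM). H2-Eb2, on 40 and 107 UMIs, was called higher over all cells (0.82) and in the B cell-like cells (1.65). Of all genes 13.6% were called higher and 16.9% lower over all cells. These shares were 15.6% and 19.7% in the Ccl24/Dscam cluster and 13.1% and 9.06% in B cell-like cells.

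Of 15 transcription factors that act on class II promoters or on Ciita, 1 was called higher and 2 lower over all cells, with a median log2 ratio of -0.20 against -0.02 for all genes. That is no more often than the 13.6% and 16.9% of all genes. Rfx5, Rfxap and Rfxank, subunits of the X box factor, were not called over all cells, at -0.22, -0.29 and -0.39. Irf8, a lineage factor of dendritic cells and monocytes, was lower over all cells (52.2 and 23.2 CPM, -1.17) and in the Ccl24/Dscam cluster (43.2 and 17.7 CPM, -1.29), but higher in activated dendritic-like cells (397 and 745 CPM, 0.91). Irf4 was lower over all cells (-0.54), and the Y box subunit Nfyc was higher (0.55). In the Ccl24/Dscam cluster Spi1 (PU.1, 325 and 475 CPM) and Nfyc were called higher, and Rfxank lower as Irf8 was, of 15 tested. Of all genes there 15.6% were called higher and 19.7% lower. In B cell-like cells Irf1 was called higher (43.2 and 79.3 CPM), and Irf4 (161 and 99.2 CPM) and Nfyb (77.0 and 35.2 CPM) lower, of 15 tested. Of all genes there 13.1% were called higher and 9.06% lower.

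Of 12 genes of antigen processing and class II turnover, 3 were called lower over all cells and none higher, with a median of -0.06, where 16.9% of all genes were lower. Ctss, the cathepsin that trims Cd74, was at 361 and 201 CPM (-0.84), the thiol reductase Ifi30 at 399 and 264 (-0.60), and March1, the ubiquitin ligase that sends surface class II to lysosomes, at 74.9 and 31.2 (-1.26). In the Ccl24/Dscam cluster 5 of the 12 were called lower and 1 higher, where 19.7% and 15.6% of all genes were. The lower ones were Ctss (542 and 348 CPM), Ctsl (365 and 240.2), Ctsb (213 and 127), March1 (59.5 and 37.5) and Cd83 (5.19 and 2.61). The higher one was the cathepsin inhibitor Cst3 (3582 and 5714 CPM), against the near-level chains of the same cells. In B cell-like cells Cd83 (269 and 711 CPM), Ifi30 (300.0 and 484), Lgmn (54.0 and 122) and March1 (14.9 and 40.6) were called higher and Ctsl lower (55.4 and 26.1). That was out of 11 tested, where 13.1% of all genes were called higher and 9.06% lower.

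Costimulatory genes were called in both directions. Over all cells Cd86 (31.0 and 67.7 CPM, 1.13) and Cd80 (13.3 and 21.3, 0.68), the ligands of CD28, were called higher. Cd274, which encodes PD-L1, was called lower (146 and 68.3 CPM, -1.09). The median log2 ratio of the 6 genes tested was -0.15, and of all genes 13.6% were called higher and 16.9% lower. In the Ccl24/Dscam cluster Cd86 was at 92.9 and 231 CPM (1.31), Cd80 at 10.8 and 15.5 (0.53) and Cd274 at 125 and 63.6 (-0.98). In B cell-like cells Cd86 (36.5 and 58.6 CPM) and Cd40 (29.7 and 51.4) were called higher and Cd274 lower (56.8 and 27.9), of 4 tested. Of all genes in these cells 13.1% were called higher and 9.06% lower.

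The genes whose level over 42 units of class and library was most like the mean of the 8 were Pltp (r = 0.90), Pkib (0.90), Ly86 (0.89), Bmyc (0.88), Cd2ap (0.87), Gpr183 (0.87), Cldnd1 (0.87), Gbp3 (0.86), Galnt12 (0.86) and Tmem173 (0.86), where r is Pearson's correlation of log2(CPM + 10). The units share the same 2 libraries. Among the 8 genes themselves r ran from 0.86 for H2-DMa to 0.98 for H2-Ab1. Each of them is part of that mean, which raises its r. Pltp, a phospholipid transfer protein, was at 68.1 and 115 CPM in the Ccl24/Dscam cluster and 2.70 and 100.1 in B cell-like cells, and Ly86, the partner of the surface receptor CD180, at 115 and 46.2 and at 229.7 and 265.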

How the data were processed

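Libraries were made with the 10x 5′ v2 kit, and the submitters' processing notes name Cell Ranger 7.0.0 and the build mm10 for the counting by the authors. The deposited values are raw counts of UMIs per gene and barcode, with no normalization (9855 DMSO and 11631 DAB barcodes). The same notes name Seurat 4.3.0 and R 4.1.2; the authors' cell labels were not used here.

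Barcodes over 10% mitochondrial UMIs (55 DMSO, 89 DAB) were left out. A further limit of 4 median absolute deviations in UMIs and in genes took none. Simulated doublets scored the cells, and 768 and 1066 were removed (0.8% per 1000 cells). Pearson residuals (theta 100) of 3000 variable genes without class II genes, with cell cycle and mitochondrial scores regressed out, gave 40 components, aligned by mutual nearest neighbours (k = 20, 55553 pairs) and clustered by Leiden at resolution 0.9 on a shared neighbour graph (k = 20). Python 3.11.15 was used with numpy 2.4.6, scipy 1.17.1, igraph 0.11.9 and leidenalg 0.10.2, in place of Seurat.

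A cluster took the name of the marker list with the highest mean log2 fold over other cells (10 CPM added), if at least 3 markers and more of the detected ones than not had a log2 fold of at least 1, and its 10 leading genes held more markers of that list than of any other. This rule was set after the clusters were seen. Classes of the same name were summed.

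Ratios of summed UMIs carry exact conditional binomial intervals, levels exact Poisson and shares exact binomial (Clopper-Pearson) intervals at 95%. PCR and capture errors are not in them. No test was made, since there is 1 library per condition. In simulated Poisson counts with 200 genes changed by a log2 ratio of 1, 95.5% of true ratios over all cells (16330 genes) were covered. There 92.4% of the changed genes and 1.04% of the unchanged ones were called. In B cell-like cells (7334 genes) these values were 96.6%, 75.8% and 2.90%. The draws hold only the counting error that the intervals assume. They check the calculation and say nothing of the spread between cells or cultures. The genes named are the 8 members, every gene of 4 pathway lists called over all cells, in the Ccl24/Dscam cluster or in B cell-like cells, and the 10 genes of most similar pattern (members and other class II locus genes left out). The members and lists were chosen with earlier results of these data known.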

Additional observations from a re-analysis of the deposited data

Results flagged for a closer look

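Each of the 8 genes was called higher in DAB in B cell-like cells and lower in another class or cluster, and the difference between the classes was not tested because there is 1 library per condition. H2-Aa was called higher in DAB in B cell-like cells (log2 ratio 1.57) and lower in immature monocyte-like cells (-4.11), a distance of 5.68. H2-Eb1 parted likewise (0.96 and -4.09, distance 5.05), and so did Ciita (2.03 and -1.94, distance 3.97). H2-Ab1 parted between B cell-like and macrophage-like cells (1.35 and -1.67, distance 3.02), as did H2-DMb1 (1.17 and -1.08, distance 2.24) and H2-DMa (1.15 and -0.64, distance 1.79). Against granulocyte progenitor-like cells the distance was 7.65 for H2-Aa, 7.21 for H2-Eb1, 2.04 for H2-DMa, 3.18 for H2-DMb2 and 3.18 for Cd74. A few DMSO cells of that class held most of its H2-Aa and Cd74 UMIs. H2-Eb1 rested there on 112 DMSO and 2 DAB UMIs, and H2-DMb2 on 18 and 10. Against the Il2ra/Cd200r3 cluster it was 3.14 for H2-Ab1, 2.72 for H2-DMb1 and 4.05 for Ciita. For these 2 units other clusterings were not run. The B cell-like side was called in each clustering tried and the macrophage-like side in each in which that class was named, except H2-DMa without alignment (-0.48). The immature monocyte-like side turned sign for H2-Aa, H2-Ab1, H2-Eb1 and Ciita when the libraries were not aligned.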

How the results depend on the processing

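Counting intervals do not cover the spread between cultures. No interval was computed with free RNA subtracted, nor over all cells with the mean of the CPM of single cells. Under these 2 settings a gene with enough UMIs was called on its log2 ratio alone. Over all cells 2 genes were called under each alternative but a log2 ratio of 1, which left 0. In B cell-like cells between 6 and 8 were called, none lower. In the Ccl24/Dscam cluster, with 2 called, 1 was left with free RNA subtracted, with scaling by the median of ratios, without doublet removal and at resolution 1.5, and 0 at a log2 ratio of 1. In activated dendritic-like cells, with 1 called, 2 were called with free RNA subtracted, with the median of ratios, without alignment and without doublet removal, and 0 at a log2 ratio of 1, as in mature PMN-like cells. Without alignment 4 genes were called in immature monocyte-like cells, all higher, in place of 5 lower, with H2-Aa at 0.56, H2-Ab1 at 0.50, H2-Eb1 at 0.82 and Ciita at 1.47; the cells in the class differ under that setting (1787 and 57 in place of 1019 and 533). H2-DMb2 in mature PMN-like cells stood at -0.19 with class II genes in the clustering, -0.10 at resolution 0.5 and -0.21 at 1.5. No other called ratio that could be computed changed sign. With free RNA subtracted, H2-DMb2 in mature PMN-like cells and H2-Eb1 in immature monocyte-like cells had no ratio. Their DAB levels lay below those of the secondary granule granulocyte-like cells. With units of at least 200 cells, 4 of the 10 genes of similar pattern remained, and 8 with 1 CPM added. Not run, for want of a named class or of 50 cells: immature monocyte-like and macrophage-like cells without doublet removal, macrophage-like cells at resolution 0.5, the Ccl24/Dscam cluster without alignment (29 and 729 cells) and B cell-like cells with an Ighd UMI. The Jchain and Ighd alternatives were chosen after seeing the data. Levels by class moved out of their counting intervals under other clusterings in 38 to 52 CPM values (33 to 58 did not), and parts of a gene's UMIs in 41 to 60. Shares of cells with a UMI did in 81 values at 3000 UMIs per cell and in 105 without thinning. No paired analysis was possible because each condition has 1 library.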
